A study of Mus musculus with 4 samples.

Results

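The genes described here carry out glycolysis, move glucose and lactate across the cell membrane, or are switched on when oxygen is scarce. They were chosen by symbol from a list of 33 glycolytic enzymes, transporters and hypoxia-induced genes, and all 33 were found among the 37991 genes of the count table by their Ensembl identifiers. RNA sequencing was done on mouse embryonic stem cells (mESC) of the strain label ZHBTc4, either wild type (wt) or null for both B-type lamins (dKO), with 2 biological replicates of each genotype. ZHBTc4 is known as a line whose own Pou5f1 alleles are disrupted and whose Pou5f1 comes from a tetracycline-repressible transgene, a background that all 4 libraries share by label. The labels do not say whether each genotype is 1 clone, so lamin loss and a difference between lines cannot be told apart. Nor do they say that replicates were separate cultures, so p-values measure only the spread between these libraries.

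Glycolysis splits glucose into pyruvate in the cytosol and yields ATP without oxygen. Lactate dehydrogenase can then reduce pyruvate to lactate, and pyruvate dehydrogenase kinases hold pyruvate back from oxidation in the mitochondria. When oxygen is low, hypoxia-inducible factors (HIF) are spared from degradation and activate many of these same genes together with genes for blood vessel growth, mitophagy and collagen hydroxylation. Mouse embryonic stem cells in the naive state are known to use both glycolysis and respiration, and primed cells lean more on glycolysis.

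Total counts ranged from 12899964 to 16697970 per library, and all 33 genes passed the low-count filter that left 14027 genes. The genotype labels were checked on the targeted transcripts. Counts of Lmnb1 were 8538 and 8321 (wt) against 69 and 101 (dKO), and those of Lmnb2 were 1343 and 1787 against 41 and 55. The 10 stem cell markers were all detected and summed to 5591 and 5631 CPM (wt) and 6184 and 6621 CPM (dKO). CPM are counts per 1000000, scaled by the trimmed mean of M values (TMM). The higher dKO sum was mostly Zfp42 (666 and 613 against 1449 and 1435 CPM), while 7 of the 10 had negative log2 fold changes. The 6 primitive endoderm markers summed to 25.9 and 23.9 CPM (wt) against 36.2 and 30.5 CPM (dKO). Most of that gap was Sox7 (4.61 and 2.1 against 11.2 and 7.7 CPM), while Dab2 and Foxa2 had negative log2 fold changes. The part of these markers in the results was not tested. The 10 fibroblast feeder markers summed to 8.6 and 13.7 CPM (wt) against 5.65 and 7.22 CPM (dKO), with none at 0 in all 4 libraries. All 5 feeder markers past the filter had negative log2 fold changes and 0 were called, against 0.0855% of all genes. Their part in the results was not tested either. Of 5 blood markers 4 were in the count table and 1 passed the filter, with 0 called, against 0.0855% of all genes. The blood markers summed to 104 and 116 CPM (wt) against 135 and 198 CPM (dKO), and their part was not tested.

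Across the 33 genes the dKO libraries had slightly lower levels than the wt libraries, but no single gene passed the test. The log2 fold change, given as dKO minus wt throughout, was negative for 26 and positive for 7 genes, with a median of -0.19. Over all 14027 genes it was negative for 50.3% and the median was -0.0019. In edgeR's quasi-likelihood test with Benjamini-Hochberg adjustment over all genes, 0 of the 33 were called at an adjusted p of 0.05, against 0.0855% of all genes. The lowest adjusted p was 0.766, for Slc2a1, the only 1 with an unadjusted p under 0.05, as 5.57% of all genes had, or 2.71% with a lower value in dKO. DESeq2 and limma-voom also called 0 of the 33, against 0.403% and 0.0356% of all genes. Treating the replicate number as a block, which the labels do not justify, called 7 of the 33, of which 6 were lower and 1 higher. The same fit called 9.26% of all genes, 4.69% lower and 4.57% higher. The median depended on 1 library: it was -0.08 without dKO replicate 2 and -0.30 without dKO replicate 1. For 24 of the 33 genes the 95% interval of the log2 fold change lay within 1 of 0, so that a 2-fold difference was outside it, and for 9 genes it was too wide for that.

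**Figure D1:**
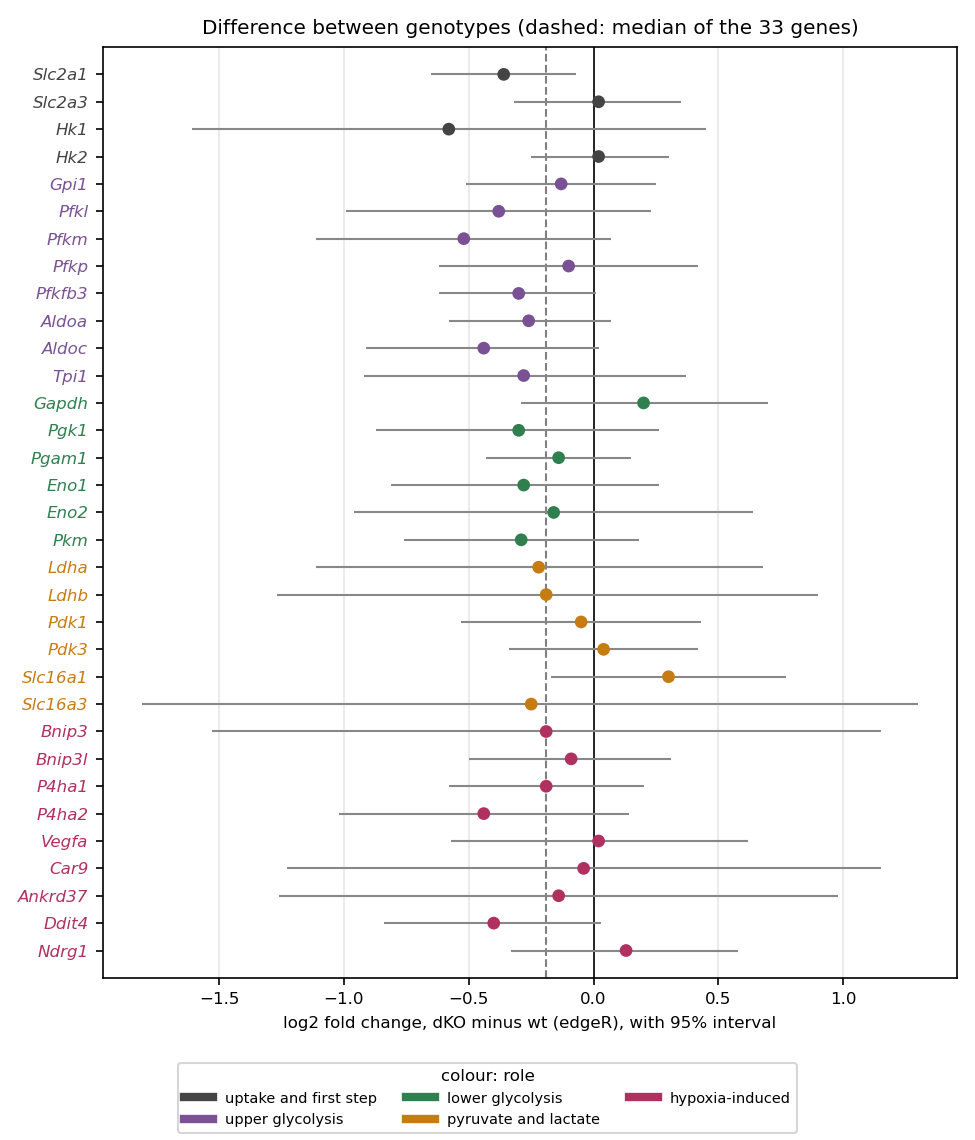
Log2 fold change of each of the 33 genes, dKO minus wt, with its 95% interval from edgeR (2 libraries per genotype). Points are coloured by role and the dashed line is the median of -0.19; 26 points lie to the left of 0, and all intervals except that of Slc2a1 include 0.

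Glucose enters the cell through the facilitative transporters GLUT1, encoded by Slc2a1, and GLUT3, encoded by Slc2a3. Slc2a1 (chromosome 4, 118781316 to 118809935 in the table's own build) had 345 and 356 CPM in wt and 285 and 261 CPM in dKO libraries. Both dKO libraries were below both wt libraries, at -0.36 on the log2 scale (SE 0.12, edgeR adjusted p = 0.766). Slc2a3 (chromosome 6, 122677827 to 122751658) had 2177 and 2483 CPM in wt and 2299 and 2423 CPM in dKO libraries. Its dKO values lay between the wt values, and the 95% interval around its log2 fold change of 0.02 ran from -0.32 to 0.35.

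Hexokinases trap glucose in the cell as glucose 6-phosphate. Hk2, the inducible form, had 187 and 197 CPM in wt and 195 and 197 CPM in dKO libraries, the narrowest spread of the 4 uptake genes. Hk1, the more widely expressed form, had 28.4 and 58.7 CPM in wt and 21.1 and 37.4 CPM in dKO libraries. The genotypes overlapped for Hk1, because its libraries within each genotype lay further apart than the genotype means, and its log2 fold change of -0.58 had a 95% interval of -1.61 to 0.45.

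The 8 genes from glucose 6-phosphate to triose phosphate were all lower in dKO by log2 fold change, from -0.52 to -0.10, and the median was -0.29. None was called. Gpi1, glucose phosphate isomerase, had 494 and 435 CPM in wt and 470 and 378 CPM in dKO libraries, which overlapped. Phosphofructokinase, the committed step, is built from liver, muscle and platelet type subunits. Pfkl, the liver type, had 215 and 208 CPM in wt and 203 and 122 CPM in dKO libraries, so its lower mean came mostly from dKO replicate 2. Pfkm, the muscle type, had 32.8 and 51.3 CPM in wt and 27.3 and 31.4 CPM in dKO libraries (log2 fold change -0.52, SE 0.24, edgeR adjusted p = 0.907). Pfkp, the platelet type, had 302 and 436 CPM in wt and 308 and 382 CPM in dKO libraries, with the dKO values inside the wt range. Pfkfb3 makes fructose 2,6-bisphosphate, an activator of phosphofructokinase. It had 48.5 and 47.8 CPM in wt and 40.1 and 37.9 CPM in dKO libraries, a small gap with little spread on either side (-0.30, SE 0.13, edgeR adjusted p = 0.888).

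Aldolase cleaves fructose 1,6-bisphosphate. Aldoa (chromosome 7, 133938748 to 133944265) had 1289 and 1314 CPM in wt and 1167 and 1012 CPM in dKO libraries, and the brain form Aldoc had 17.0 and 20.3 against 14.0 and 13.4 CPM. Both were lower in each dKO library than in each wt library, with log2 fold changes of -0.26 and -0.44 and unadjusted edgeR p of 0.101 and 0.0581. Tpi1, which interconverts the triose phosphates, had 372 and 289 CPM in wt and 339 and 208 CPM in dKO libraries, and overlapped.

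Of the 6 genes of the later, energy-yielding steps, 5 had negative log2 fold changes and 0 were called, against 0.0855% of all genes. Pgk1 (chromosome X, 103382439 to 103399038), phosphoglycerate kinase, which makes ATP, had 528 and 412 CPM in wt and 455 and 305 CPM in dKO libraries. Pgam1, phosphoglycerate mutase, had 205 and 186 against 183 and 172 CPM. Enolase 1, from Eno1, had 1098 and 925 against 998 and 674 CPM. For Pgk1 and Eno1 the genotypes overlapped, since dKO replicate 1 was above wt replicate 2, while for Pgam1 they did not. Pkm (chromosome 9, 59504383 to 59527182), the pyruvate kinase of most tissues, had the highest mean CPM of the 33 genes, with 3479 and 3006 CPM in wt and 3067 and 2252 CPM in dKO libraries (-0.29, SE 0.19, edgeR adjusted p = 0.959). The neuronal enolase Eno2 was near the bottom, at 2.64 to 3.22 CPM over the 4 libraries.

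Summed over the 20 transporters and enzymes from Slc2a1 to Ldhb, the CPM were 11788 and 11401 in wt, against 10957 and 9318 for the dKO libraries. The sums did not overlap, and the dKO mean was 12.6% below the wt mean. The two-sided exact permutation p was 0.33, the smallest that 2 against 2 libraries can give. The difference shrank to -5.5% without dKO replicate 2 and grew to -19.6% without dKO replicate 1. In all, 11 of the 33 genes had both dKO libraries below both wt libraries, against 16.4% of all genes, and 0 had both above, against 17.2% of all genes. The 11 were Slc2a1, Pfkl, Pfkm, Pfkfb3, Aldoa, Aldoc, Pgam1, Eno2, P4ha1, P4ha2 and Ddit4.

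Gapdh, the dehydrogenase often used as a loading control, had few counts: 178 and 231 (wt) and 242 and 313 (dKO), or 13.9 to 18.7 CPM. Its coding sequence is copied many times in the genome. Of its 1035 distinct windows of 50 coding bases in GENCODE M21, 93.5% also occurred in a transcript of another gene, and 212 annotated pseudogenes shared at least 1 window. The 82 such genes with a row in the table together held only 157, 189, 180 and 239 counts. Whether reads with several matching places were dropped is not given in the sources used here, and the Gapdh value cannot be read as the level of its mRNA. In all, 12 of the 33 genes shared coding windows with another gene, among them Pgam1 (100%), Pgk1 (99.3%), Eno1 (75.1%), Bnip3l (72.9%), Bnip3 (72.5%) and Pkm (41.4%), and their counts are uncertain. The median log2 fold change of the other 21 genes, a subset chosen after the data were seen, was -0.16.

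Few of these copies had counts of their own. Eno1b, a copy of Eno1 annotated as protein-coding, had 136 and 123 CPM in wt and 122 and 86.4 CPM in dKO libraries (-0.31, edgeR adjusted p = 0.948), close to the log2 fold change of -0.28 for Eno1. The Eno1 copies Gm4735 and Gm16103, at 1.01 to 4.67 CPM, had -0.35 and -0.64. Gm1840, a processed pseudogene of Gpi1 on chromosome 8, went the other way from its parent. Its counts were 95 and 98 (wt) against 293 and 248 (dKO), with no overlap. The log2 fold change was 1.24 for Gm1840 (SE 0.22, unadjusted p = 0.0017, edgeR adjusted p = 0.34) and -0.13 for Gpi1. Peli2 and 3000002C10Rik, which share windows with Gapdh, had 0.37 and -0.12.

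Levels of different genes were compared per kilobase of annotated exon. This length merged the exons of all GENCODE M21 transcripts of a gene, and can exceed that of a single mRNA. Pkm was highest at 590.0 CPM per kilobase, the mean of 4 libraries, followed by Aldoa (411), Slc2a3 (324), Ldhb (229), Pgk1 (189), Eno1 (172), Ldha (161) and Tpi1 (109.6). The ranges of Aldoa and Slc2a3 over libraries did not overlap. From Ldhb down to Tpi1 the ranges over libraries overlapped between neighbours. The order of Ldhb and Ldha depended on the division by length. Without it the mean CPM of Ldhb was 384 in wt and 337 in dKO, against 572 and 493 for Ldha. The 11 highest of the 33 lay above the 95th percentile of all tested genes on this scale. Of these, Pkm, Aldoa, Ldhb, Pgk1, Eno1, Ldha, Tpi1, Pgam1 and Gpi1 share coding windows with other genes, so their counts and places are uncertain. Car9, Eno2 and Ankrd37 were lowest, each under 1 CPM per kilobase. Slc2a3 exceeded Slc2a1 per kilobase in all 4 libraries, and Hk2 exceeded Hk1.

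**Figure D2:**
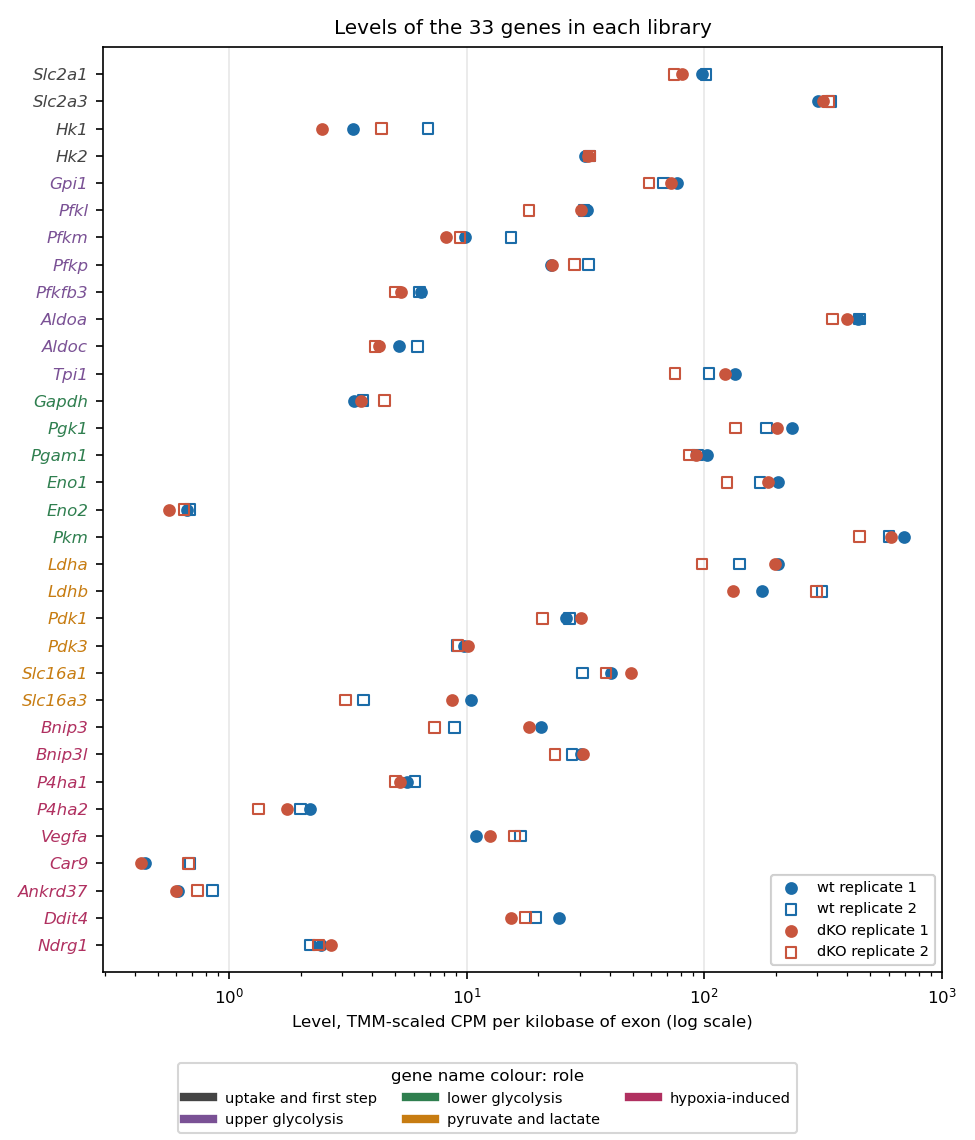
Level of each of the 33 genes in each library, in CPM per kilobase of exon on a log scale, with circles for replicates 1, squares for replicates 2, blue for wt and red for dKO. Pkm averages 590.0 and Car9 0.556, and for Hk1, Ldhb, Slc16a3 and Bnip3 symbols of the same shape lie closer together than symbols of the same colour.

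Pyruvate and lactate genes varied more between the libraries of a genotype than between genotypes. Of the 6, 0 were called, against 0.0855% of all genes. Ldha (chromosome 7, 54096845 to 54110997) encodes the lactate dehydrogenase subunit that favours lactate formation. It had 679 and 466 CPM in wt and 661 and 325 CPM in dKO libraries. Ldhb (chromosome 6, 142438769 to 142456477), whose subunit favours the return of lactate to pyruvate, had 275 and 493 CPM in wt and 207 and 466 CPM in dKO libraries. Replicate 1 was thus high for Ldha and low for Ldhb in both genotypes. The log2 fold changes were -0.22 (95% interval -1.11 to 0.68) and -0.19 (-1.27 to 0.90).

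Slc16a3 (chromosome 11, 120809794 to 120822182) encodes MCT4, a lactate exporter of glycolytic cells and a HIF target. It had 55.2 and 19.6 CPM in wt and 46.2 and 16.5 CPM in dKO libraries, a 2.82-fold gap between the wt libraries and a 2.81-fold gap between the dKO libraries. Slc16a1, which encodes the more broadly expressed transporter MCT1, had 180.4 and 136 CPM in wt and 217 and 171 CPM in dKO libraries. At 0.30 (SE 0.19, edgeR adjusted p = 0.955) it had the highest log2 fold change of the 33 genes, and its genotypes overlapped. The pyruvate dehydrogenase kinases differed little, with Pdk1 at 203 and 210.4 CPM in wt and 236 and 163 CPM in dKO libraries (-0.05) and Pdk3 at 23.3 to 26 CPM (0.04).

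Of the 9 hypoxia-induced genes 7 had a log2 fold change below 0, and the median was -0.14. Of these 9, 0 were called, against 0.0855% of all genes. Bnip3 (chromosome 7, 146082519 to 146101202), a mitophagy receptor, had 46.4 and 20.2 CPM in wt and 41.6 and 16.6 CPM in dKO libraries. It followed Slc16a3, with the libraries of a genotype 2.3-fold and 2.5-fold apart. Its relative Bnip3l had 117 and 107 against 119 and 91.0 CPM. Collagen prolyl hydroxylase subunits were lower in each dKO library: P4ha1 had 23.0 and 25.0 against 21.5 and 20.6 CPM, and P4ha2 had 13.7 and 12.5 against 11 and 8.29 CPM (-0.44, SE 0.23, edgeR adjusted p = 0.942). Vegfa, a growth factor for blood vessels, had 47.1 and 72.2 CPM in wt and 53.4 and 68.0 CPM in dKO libraries (0.02).

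Ddit4, an inhibitor of mTORC1 signalling, had 42.9 and 34.2 CPM in wt and 27.1 and 31.1 CPM in dKO libraries (-0.40, SE 0.17, unadjusted p = 0.0614, edgeR adjusted p = 0.907). Ndrg1, a stress-responsive gene, had 16.2 and 14.5 against 17.7 and 15.7 CPM. Car9, a carbonic anhydrase and a common marker of hypoxic tissue, stayed at 0.982 to 1.58 CPM, that is 13 to 26 counts per library. Ankrd37 had 12 to 20 counts per library. At this depth their 95% intervals, -1.23 to 1.15 and -1.26 to 0.98, reached a 2-fold difference.

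Differences between replicates 1 and 2 that ran the same way in both genotypes were common over all genes, and the 33 genes shared them. In 16 genes replicate 2 was lower than replicate 1 in wt and in dKO cells, against 36.4% of all genes. In 11 genes it was higher in both, against 35.9%. In the other 6 the direction differed between the genotypes. The same direction in both was thus seen in 27 of 33 genes, or 81.8%, and in 72.3% of all genes. The 16 included Gpi1, Pfkl, Tpi1, Pgk1, Pgam1, Eno1, Pkm, Ldha, Slc16a1, Slc16a3, Bnip3 and Bnip3l. The 11 included Hk1, Pfkm, Pfkp, Ldhb, Vegfa, Car9 and Ankrd37.

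Across the 33 genes the difference between wt replicates 2 and 1 had a Pearson's r of 0.894 and a Spearman's rho of 0.835 with that between dKO replicates 2 and 1, and over all 14027 genes these were 0.677 and 0.609. The coefficients describe the libraries only, since genes share a library and are not independent replicates. In 5 genes (Hk1, Ldha, Ldhb, Slc16a3 and Bnip3) the log2 difference was larger than 0.5 in both genotypes. In 18 of the 33 genes both within-genotype differences were larger in size than the difference between genotypes, against 45.4% of all genes. The labels give no meaning to the replicate number beyond a name. The 6 trophoblast markers summed to 283 and 181 CPM in replicates 1 of wt and dKO and to 431 and 318 CPM in replicates 2. Most of that gap was Krt8, which had 64.2 and 176 CPM in dKO replicates 1 and 2 and differed in the same direction in wt. Krt7 and Hand1 were also higher in both replicates 2. Tfap2c was nearly level within each genotype (142 and 138 CPM in wt, 108 and 109.6 CPM in dKO), Cdx2 was lower in both replicates 2, and Elf5 was at most 0.329 CPM. By genotype, the 5 that passed the filter all had negative log2 fold changes (median -0.36), and 0 were called, against 0.0855% of all genes. The part of these markers in the result was not tested. In bulk RNA a smaller share of cells and less RNA per cell cannot be told apart.

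**Figure D3:**
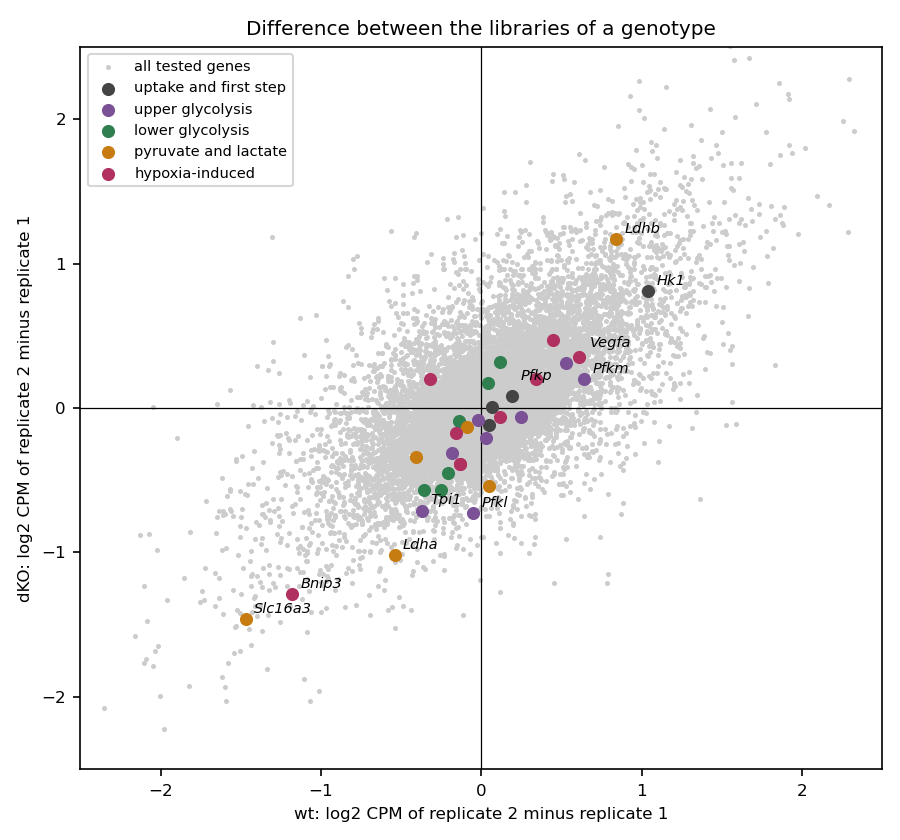
Log2 CPM (with 0.5 added) of replicate 2 minus replicate 1, in wt on the x axis and in dKO on the y axis, for the 33 genes (coloured by role) and the tested genes (grey, with 9 of the 14027 outside the axes). Slc16a3, Bnip3 and Ldha lie at the lower left and Ldhb and Hk1 at the upper right, so each differed in the same direction in both genotypes.

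The promoters of Ldha, Slc16a3 and Bnip3, whose log2 CPM was lower by over 0.5 in both replicates 2, and of Ldhb, which was higher there, are shown for comparison. They were chosen after the values were seen. HIF is known to bind a core of ACGTG or GCGTG. Each line gives the 250 bases before the RefSeq start in build GRCm38.p6, 5′ to 3′ on the gene's strand, with ACGTG on either strand (read as CACGT from the other) in capitals. Overlapping matches merge into CACGTG.
Ldha, chr7:46845554-46845803, plus strand: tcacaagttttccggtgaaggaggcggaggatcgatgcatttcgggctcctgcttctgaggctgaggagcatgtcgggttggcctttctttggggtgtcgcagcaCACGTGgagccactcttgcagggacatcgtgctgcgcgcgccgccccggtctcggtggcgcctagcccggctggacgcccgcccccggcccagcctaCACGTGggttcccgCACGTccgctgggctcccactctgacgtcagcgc
Slc16a3, chr11:120948817-120949066, plus strand: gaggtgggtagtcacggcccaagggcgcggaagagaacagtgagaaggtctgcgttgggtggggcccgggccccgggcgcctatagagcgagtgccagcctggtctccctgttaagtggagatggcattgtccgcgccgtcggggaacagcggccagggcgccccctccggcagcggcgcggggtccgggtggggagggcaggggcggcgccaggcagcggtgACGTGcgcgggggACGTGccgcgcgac
Bnip3, chr7:138909507-138909756, minus strand: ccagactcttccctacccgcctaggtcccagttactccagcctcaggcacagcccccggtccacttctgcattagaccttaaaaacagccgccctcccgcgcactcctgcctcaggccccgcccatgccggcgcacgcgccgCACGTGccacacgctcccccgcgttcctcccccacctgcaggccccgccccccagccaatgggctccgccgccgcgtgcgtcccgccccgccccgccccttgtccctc
Ldhb, chr6:142507958-142508207, minus strand: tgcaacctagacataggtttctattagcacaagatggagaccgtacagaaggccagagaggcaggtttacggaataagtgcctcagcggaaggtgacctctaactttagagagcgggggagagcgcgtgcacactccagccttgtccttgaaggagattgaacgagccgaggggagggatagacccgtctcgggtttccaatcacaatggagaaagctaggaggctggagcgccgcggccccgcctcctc

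The Ldha window held 5 matches to ACGTG counted over both strands, the Slc16a3 and Bnip3 windows 2 each, and the Ldhb window 0. A CACGTG was counted once on each strand, so the Bnip3 matches, and most of those in Ldha, overlap each other. Those in Slc16a3 lie apart. GCGTG, left in lower case, gave another order, with 3 matches in the Bnip3 window, 1 in the Ldhb window and 0 in those of Ldha and Slc16a3. The other Ldha window in RefSeq held 0 matches to ACGTG and 1 to GCGTG. The windows of Hk1, which was also higher in both replicates 2 and is not printed, held 0 matches to ACGTG. They held 3 and 0 matches to GCGTG. The window of Tpi1, which was lower in both replicates 2, held 0 matches to either. RefSeq had windows for 30 of the 33 genes, 44 in all. ACGTG occurred on either strand in 22 of the 44 (50%), in 16.6% of all 32851 windows and in 21.3% of the 13475 windows of tested genes. GCGTG occurred in 25 of the 44 (56.8%), in 28.2% of all windows and in 44.3% of those of tested genes. ACGTG was also in a window of Vegfa, Car9, Hk2, Pfkm and Ankrd37, which were higher in both replicates 2. Of the genes higher there, Hk1, Ldhb, Pfkp, Gapdh and Eno2 had no ACGTG in their windows. Among genes lower in both replicates 2, Pfkfb3, Pgk1, Pgam1, Pkm, Pdk3, Slc16a1 and P4ha2 also had ACGTG in a window. Gpi1, Pfkl and Eno1, likewise lower, had no ACGTG, like Tpi1. These are matches of letters, some in windows that overlap each other, and say nothing about binding in these cells.

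Where a step has several isozymes, their shares per kilobase were compared. Ldha made up 54.0% and 31.0% of the summed Ldha and Ldhb in wt, against 60.2% and 24.8% for the dKO libraries. The genotype means were 42.5% ± 16.3 and 42.5% ± 25.0 (SD, n = 2 each), or 59.9% and 58.6% when CPM were not divided by length. The libraries of a genotype lay far apart. Leaving out 1 library moved the difference between genotypes from 0.0568 points to between -17.6 (without dKO replicate 1) and 17.7 (without dKO replicate 2), with 11.6 and -11.4 points without wt replicate 1 and 2, so these data do not settle whether the balance differed. Slc2a1 made up 24.7% and 22.9% of the summed glucose transporters in wt, against 20.4% and 18.2% for the dKO libraries, with no overlap (23.8% ± 1.28 against 19.3% ± 1.51, SD, n = 2 each, two-sided exact permutation p = 0.33, the smallest possible). The difference of -4.46 points was -2.73 points when CPM were not divided by length. For the other 8 families the genotypes overlapped. Among the phosphofructokinases Pfkl had 49.9% and 39.4% in wt, against 49.4% and 32.5% for the dKO libraries. Pfkp had 34.9% and 41.2% in wt, against 37.3% and 50.7% for the dKO libraries, and exceeded Pfkl in both replicates 2. The merged exons measured 13401 bases for Pfkp, 6675 for Pfkl and 3340 for Pfkm. When CPM were not divided by length, Pfkp had the larger mean share in both genotypes (58.8% in wt and 64.3% in dKO). Pfkl then had 34.5% and 30.2%. Hk2 made up 82.8% to 93.0% of the hexokinases, Aldoa at least 98.6% of the aldolases and Eno1 at least 99.5% of the enolases.

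**Figure D4:**
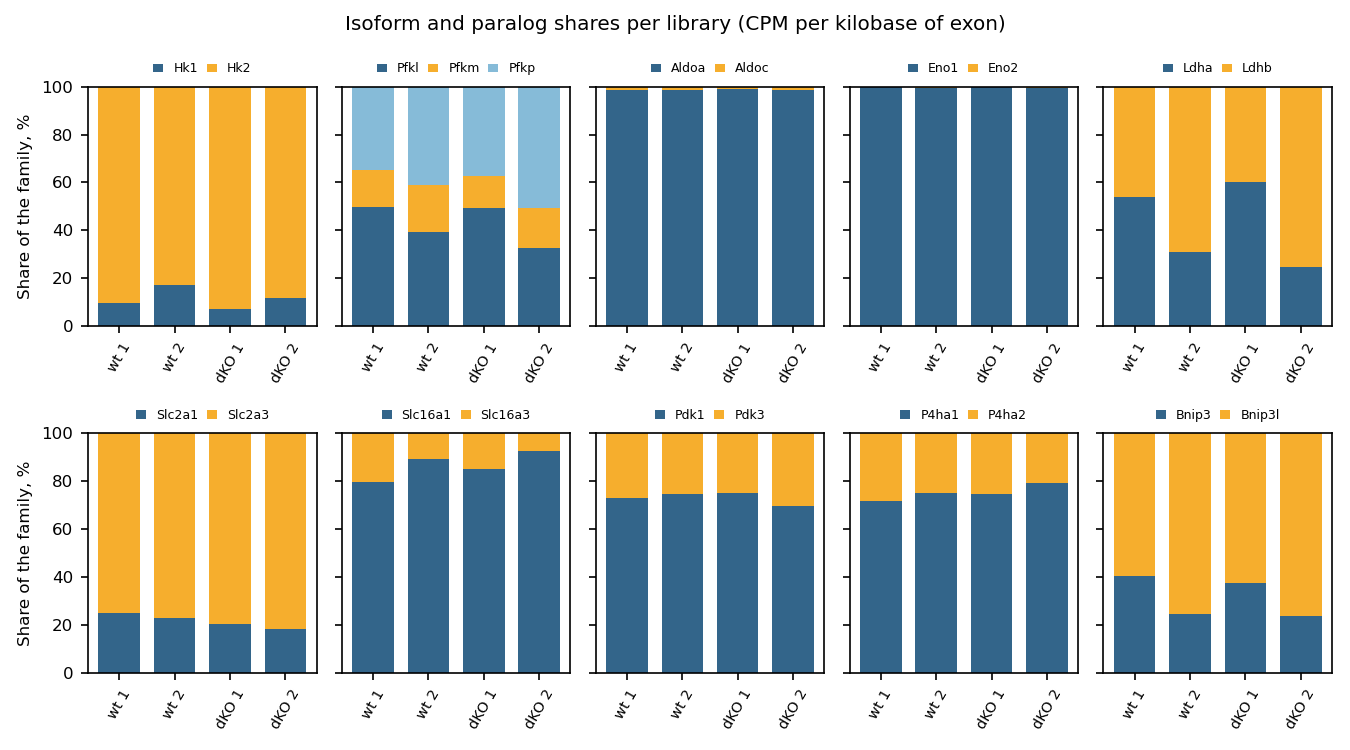
Share of each isoform or paralog in its family in each library, in percent of the summed CPM per kilobase of exon (bars start at 0 and stack to 100%). The Ldha share is high in both replicates 1 (54.0% and 60.2%) and low in both replicates 2, while the Aldoa and Eno1 shares hardly differ.

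The machinery that senses oxygen was examined with a list of 10 genes, of which 1 was called higher and 0 lower. Over all genes 0.0855% were called in either direction. Epas1, which encodes HIF-2α, had 12.8 and 16.1 CPM in wt and 53.8 and 52.9 CPM in dKO libraries (1.88, SE 0.17, edgeR adjusted p = 0.0471), a call that was lost with total counts only (0.0724) and by limma-voom (0.0737). Hif1a had 185 and 159 CPM in wt and 195 and 192 CPM in dKO libraries (0.17, edgeR adjusted p = 0.968). Egln3, a prolyl hydroxylase that marks HIF for degradation and is itself HIF-induced, had 12.7 and 9.80 CPM (wt) against 6.32 and 3.28 CPM (dKO; log2 fold change -1.23, edgeR adjusted p = 0.723), and was singled out after its values were seen.

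In the related pathways 0 genes were called by edgeR with genotype as the only term, against 0.0855% of all genes. With the replicate number as a block, edgeR called 3 of the 18 tested other hypoxia-induced genes and 3 of the 10 oxygen-sensing genes. It also called 1 of 12 other glycolytic genes and 1 of 9 pentose phosphate genes. By the same fit 9.26% of all genes were called. Among 20 other hypoxia-induced genes 18 were tested, with a median of 0.06 and 11 positive values. The most abundant were Kdm3a (0.10), Mif (-0.02) and Ak4, an adenylate kinase, with 189 and 307 CPM (wt) against 124 and 184 CPM (dKO; -0.69, edgeR adjusted p = 0.893). Of 18 other glycolytic isoforms and regulators 12 were tested (median -0.01), led by Tigar (0.07), Pfkfb2 (0.10) and Eno3 (-0.01), while Pgk2 had 1 count over the 4 libraries. The 9 pentose phosphate genes had a median of -0.01, with Tkt at -0.02, Prps1 at 0.04 and Pgd at 0.26. Rpe, singled out after its values were seen, had 98.9 and 105 CPM (wt) against 67.8 and 64.8 CPM (dKO; -0.62, unadjusted p = 0.00209, edgeR adjusted p = 0.366). The 24 genes of pyruvate oxidation and the citric acid cycle had a median of 0.01 and a range of -0.22 to 0.23, with Cs at -0.05 and Sdha at 0.15. Of 7 gluconeogenic genes 4 were tested (median -0.12), with Pck2 at 0.13, Pcx at -0.18 and G6pc3 at -0.07. An unadjusted edgeR p under 0.05 was reached by 2 genes each among the oxygen-sensing and the other glycolytic genes. It was reached by 1 each among the other hypoxia-induced and pentose phosphate genes, by 0 in the other lists, and by 5.57% of all genes.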

How the data were processed

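Raw counts, deposited by the authors as 1 table, list Ensembl genes against the 4 libraries with gene positions in a build not given in the sources used here. TopHat2 2.0.6, TopHat and HTSeq are named, without roles, in the submitters' processing notes. Per the labels' protocols, total RNA was taken with Trizol and made into TruSeq libraries. Symbols, exon lengths and transcripts came from GENCODE M21 by gene ID, and promoters from RefSeq.

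After the filterByExpr filter and TMM scaling, genotype was tested in edgeR 4.0.16 (R 4.3.3) by its robust quasi-likelihood test, with no other term and Benjamini-Hochberg adjustment over 14027 genes. SEs came from the F statistic. Alternatives were DESeq2 1.42.0 size factors and Wald test (no filter), total counts, other filters, limma-voom (limma 3.58.1), a replicate block and each library left out. The scripts were tested on simulated counts. The genes, lists and tests were chosen with earlier results of these data known. All 33 genes are named; of the other lists, called genes or else the 3 with the highest CPM are named, except 1 that is not reported here. Hif1a was named by rule, and Egln3, Rpe, Pgk2 and single markers after their values were seen.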

Additional observations from a re-analysis of the deposited data

How the results depend on the processing

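Of the 33 genes, 0 were called under every alternative run except the replicate block. Leaving out 1 library called 18 to 27 genes in all in place of 12; DESeq2 called 92, limma-voom 5, and edgeR without the low-count filter 80. With a replicate block it was 1299 (9.26% of genes), and 7 of the 33 genes were called: Hk1 (-0.55, edgeR adjusted p = 0.00228), Pfkm (-0.50), Slc2a1 (-0.36), Pgk1 (-0.32), Tpi1 (-0.31) and Pkm (-0.30) lower, and Slc16a1 (0.30) higher. Same-numbered libraries deviated together over genes (r = 0.677), which is only a hint, as the labels do not say what a number shares. Pearson's r of log2 CPM was 0.988 between replicates 1 of wt and dKO and 0.986 between replicates 2. It was 0.982 between the wt libraries, 0.985 between the dKO libraries, and 0.979 and 0.972 between differently numbered libraries of wt and dKO. The median of -0.19 ran from -0.30 to -0.08 with 1 library left out and from -0.21 to -0.16 otherwise. The difference in summed CPM ran from -19.6% to -5.5% with 1 library left out. The sign of the log2 fold change changed for 16 of the 33 genes when 1 library was left out, each without a call, and for 0 under the other alternatives. Depth limits the lowest genes, Car9 and Ankrd37.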
